A study of Mus musculus with 16 samples.

Results

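The maternally expressed long noncoding RNAs (lncRNAs) of the Dlk1-Dio3 domain, an imprinted region on mouse chromosome 12, were examined in skeletal muscle of 16 mice. The members are the rows of the lncRNA table that lie wholly within one window of chromosome 12 (GRCm38), from just before the start of Meg3 through Rian to just beyond the end of Mirg, and they run from chr12:109540996 to position 109749458. The rule took 97 of the 58245 rows in the table, and all 97 had at least 1 count. All mice were C57BL/6J males bought at 6 weeks of age, with 4 mice in each of 4 groups. The control group received the diet that the labels call normal, which the paper describes as a defined diet lower in fat and richer in carbohydrate. The HFD group received the high-fat diet D12492J (60% fat) for 8 weeks. The HFD + RSV and HFD + metformin groups were fed the same high-fat diet for 8 weeks and were then treated for 6 weeks with resveratrol (RSV), a plant polyphenol, or with metformin, a glucose-lowering drug. The paper does not state whether the control and HFD mice were kept for those 6 weeks as well. Age and time on the diet may therefore differ between treated and untreated groups. The labels name no engineered allele. Every label of the HFD group begins with H7 and the number 7 leads the labels of no other group, so whatever that number stands for cannot be told apart from the group.

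Imprinted genes are read from the chromosome of a single parent. In this domain the protein genes Dlk1, Rtl1 and Dio3 are expressed from the paternal chromosome, and Meg3, Rian, Mirg and most of the small RNAs between them from the maternal chromosome. These lncRNA genes lie on the same strand in a head-to-tail order that is often described as a single long transcription unit. A few small RNAs annotated in the window, miR-299b, miR-3071 and miR-3544, lie on the other strand. Meg3 is a nuclear lncRNA that binds the Polycomb repressor complex, Rian carries C/D small nucleolar RNAs (snoRNAs), and Mirg carries a large microRNA (miRNA) cluster. In muscle the domain is known for the callipyge overgrowth of sheep and for miRNAs that are targets of MEF2 transcription factors.

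The promoter sequences of the 3 named lncRNA genes are shown because their transcripts are compared below. They were taken from RefSeq annotation on GRCm38.p6, and each runs from 250 bases before to 50 bases after an annotated start, 5′ to 3′ on the plus strand. Capitals mark matches, on either strand, to the cAMP response element TGACGTCA or to the TATA box letters TATAAA, and the MEF2 letters CTA and TAG with 4 bases between them were searched as well. The Meg3 window is chr12:109540746-109541045, the Rian window chr12:109603695-109603994 and the Mirg window chr12:109734731-109735030. The Mirg window lies inside the Mirg locus compared below, which begins at position 109719392, and past the GENCODE start of Mirg at position 109729764. It also covers the microRNAs miR-668 and miR-485-3p. It therefore describes a RefSeq start within the locus and not the place where the compared Mirg transcripts begin.
Meg3: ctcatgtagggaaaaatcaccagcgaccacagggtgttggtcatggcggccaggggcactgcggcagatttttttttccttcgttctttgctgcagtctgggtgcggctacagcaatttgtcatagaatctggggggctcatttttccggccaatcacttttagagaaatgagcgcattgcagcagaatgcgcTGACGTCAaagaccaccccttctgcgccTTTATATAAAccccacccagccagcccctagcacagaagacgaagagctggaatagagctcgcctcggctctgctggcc
Rian: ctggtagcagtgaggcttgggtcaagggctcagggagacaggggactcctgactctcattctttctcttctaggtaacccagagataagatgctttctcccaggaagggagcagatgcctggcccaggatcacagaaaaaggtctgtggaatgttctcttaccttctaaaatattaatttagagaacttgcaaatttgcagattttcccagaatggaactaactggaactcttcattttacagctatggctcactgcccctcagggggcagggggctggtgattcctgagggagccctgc
Mirg: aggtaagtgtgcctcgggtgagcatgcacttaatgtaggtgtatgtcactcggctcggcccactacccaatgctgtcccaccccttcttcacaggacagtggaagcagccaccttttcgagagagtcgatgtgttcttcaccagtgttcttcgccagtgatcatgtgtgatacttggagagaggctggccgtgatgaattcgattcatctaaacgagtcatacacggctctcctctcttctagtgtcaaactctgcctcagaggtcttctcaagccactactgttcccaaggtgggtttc
Only the Meg3 window held a cAMP response element, which began 57 bases before the start, and 2 overlapping TATA matches, one on each strand. Of 32851 windows of this length over all annotated promoters, 1.79% held the cAMP response element, 13.6% held TATAAA and 3.69% held the MEF2 letters, which none of the 3 windows held. The Meg3, Rian and Mirg windows had 13, 0 and 10 CG pairs, against a median of 7 over all windows. The E-box letters CANNTG, which are not capitalised, occurred once each in the Rian and Mirg windows and in 72.3% of all windows. A second annotated Meg3 window, chr12:109545148-109545447, held 1 E-box match and 1 CG pair. A match is a description of the letters only.

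The members sit around 57 annotated miRNA hairpins. One mature miRNA from each of the Meg3, NONMMUT015735.2 and Rian loci and 2 pairs with a shared seed from the Mirg locus show what these transcripts carry, with the seed (bases 2 to 8) in capitals. The mature miRNAs themselves were not measured here.
miR-770-5p (Meg3): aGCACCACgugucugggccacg
miR-433-3p (NONMMUT015735.2): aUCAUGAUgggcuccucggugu
miR-370-3p (Rian): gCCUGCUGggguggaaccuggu
miR-376c-5p (Mirg): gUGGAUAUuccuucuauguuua
miR-376b-5p (Mirg): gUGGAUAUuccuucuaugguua
miR-453 (Mirg): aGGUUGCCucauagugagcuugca
miR-496a-5p (Mirg): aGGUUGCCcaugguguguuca
Among the 111 mature miRNAs of the window, 9 seeds were shared by 2 mature miRNAs each. The Mirg span held 23 of the 57 hairpins, the Rian span held 3 hairpins and 13 annotated snoRNAs, and 28 hairpins lay between the loci. The table records the long transcripts around these small RNAs, not the small RNAs.

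Of the 97 rows, 32 were Ensembl transcripts, whose start and end matched the GENCODE M21 annotation in all 32 cases, and 65 were NONCODE transcripts. Many of the rows overlap one another, and the authors' counting tool divides fragments among overlapping transcripts. The rows were therefore also summed into merged loci, each made of rows whose spans overlap in a chain. This gave 13 loci. The Meg3 locus (chr12:109540996-109571729) held 32 rows and 55.0% of the 13563 member counts, the Rian locus (chr12:109603843-109661716) held 36 rows and 24.4%, and the Mirg locus (chr12:109719392-109749458) held 15 rows and 5.02%. The table gives no strand, so reads of the Meg3 locus and of the antisense gene Gm26906 within it, or of NONMMUT015735.2 and of Rtl1 on the other strand, cannot be told apart. Between them lay NONMMUT087712.1, NONMMUT015735.2, which lies within the span of Rtl1 and carries miR-433, and the annotated transcripts Gm37899 and B830012L14Rik. These 7 loci had enough counts to be tested. The other 6 loci had between 5 and 94 counts over all 16 mice and were not tested. Per length, the summed FPKM averaged 9.11 for Meg3, 3.78 for Rian, 1.26 for Mirg, 0.522 for the B830012L14Rik locus and 0.194 for Gm37899 over the 16 mice.

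The lncRNA table held between 2655892 and 4325781 counts per mouse, of which 542 to 1099 lay in the members. Only 28 of the 97 rows passed the filter on low counts, and these held 78.8% of the member counts, so that a statement on tested rows says little about the other 69. Levels are given as CPM (counts scaled to the size of each library) of the lncRNA table after TMM scaling, which evens out differences in library composition, unless another scale is named. In the mRNA table the 10 skeletal muscle fibre markers, among them Acta1 and Ckm, were all detected and summed to between 58608.9 and 113896 CPM. One protocol label speaks of retinas, but 3 of 8 retina markers were not in the mRNA table and the other 5 summed to between 0.321 and 1.41 CPM. Tests are edgeR quasi-likelihood tests fitted to all 16 mice, with P adjusted by Benjamini-Hochberg over all rows, loci or genes tested.

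The first comparison asks how the high-fat diet changed the domain. All 7 tested loci had a higher mean level in HFD mice than in controls, with log2 fold changes from 0.40 to 0.88 and a median of 0.75, while the median over all 14379 loci tested was -0.01. The Rian locus rose 1.84-fold and was the only one of the 7 past the adjusted threshold, against 2.73% of all loci. At an unadjusted P under 0.05 the count was 6 of 7 loci, against 19.3% of all loci. Without TMM scaling it was 2 of 7, a count for which the share of all loci is not given here. The 7 loci were measured in the same mice and belong to what is often described as a single transcription unit. They are therefore not 7 independent results. None of the 7 combined an unadjusted P under 0.05 with a change of over 1 on the log2 scale, which 5.77% of all loci did.

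Rian had 33.2, 40.6, 40.3 and 47.1 CPM in the 4 control mice and 83.4, 73.7, 77.0 and 64.1 CPM in the 4 HFD mice. Every HFD mouse was above every control mouse. The log2 fold change was 0.88 with an SE of 0.17 (edgeR, n = 4 and 4, adjusted P = 0.0193). The adjusted P moved to 0.0634 without control mouse C1-4, to 0.0606 without control mouse C1-5 and to 0.0535 without HFD mouse H7-4, with log2 fold changes of 0.89, 0.89 and 0.87. The mRNA table lists 7 further Rian transcripts, whose summed counts were 62, 31, 67 and 71 in the control mice and 53, 26, 54 and 41 in the HFD mice. With these counts added the log2 fold change of Rian was 0.61 (edgeR, adjusted P = 0.0463).

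Meg3 had 131, 96.1, 112 and 128 CPM in the control mice and 162, 153, 166 and 167 CPM in the HFD mice. These groups did not overlap either, and the HFD mice lay within a narrow range. The log2 fold change was 0.47 with an SE of 0.19 (edgeR, n = 4 and 4, adjusted P = 0.177). Meg3 and Rian were thus 2 of 7 loci whose HFD mice all lay above the control mice, against 7.41% of all loci tested.

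Mirg had 8.67, 7.24, 6.51 and 14.1 CPM in the control mice and 12.0, 17.8, 16.5 and 16.4 CPM in the HFD mice. Control mouse C2-2 lay above HFD mouse H7-2, so the groups overlapped. The log2 fold change was 0.79 with an SE of 0.21 (edgeR, n = 4 and 4, adjusted P = 0.0591). Without control mouse C2-2 it was 1.07 (edgeR, adjusted P = 0.0149).

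The transcripts between the named genes had means of the same order. B830012L14Rik had 9.30 ± 4.43 CPM (SD, n = 4) in the control group and 16.2 ± 3.04 CPM in the HFD group, a log2 fold change of 0.81 (edgeR, adjusted P = 0.171). Gm37899 had 10.4 ± 3.30 CPM and 16.2 ± 2.76 CPM, a log2 fold change of 0.64 (edgeR, adjusted P = 0.185). NONMMUT015735.2, the row over miR-433 and Rtl1, had 4.27 ± 1.74 CPM and 7.16 ± 1.26 CPM, a log2 fold change of 0.75 (edgeR, adjusted P = 0.226). In each of these 3 loci 1 control mouse, C2-2, lay above at least 1 HFD mouse. NONMMUT087712.1 had 6 to 10 counts in the control mice and 6 to 13 counts in the HFD mice.

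**Figure D1:**
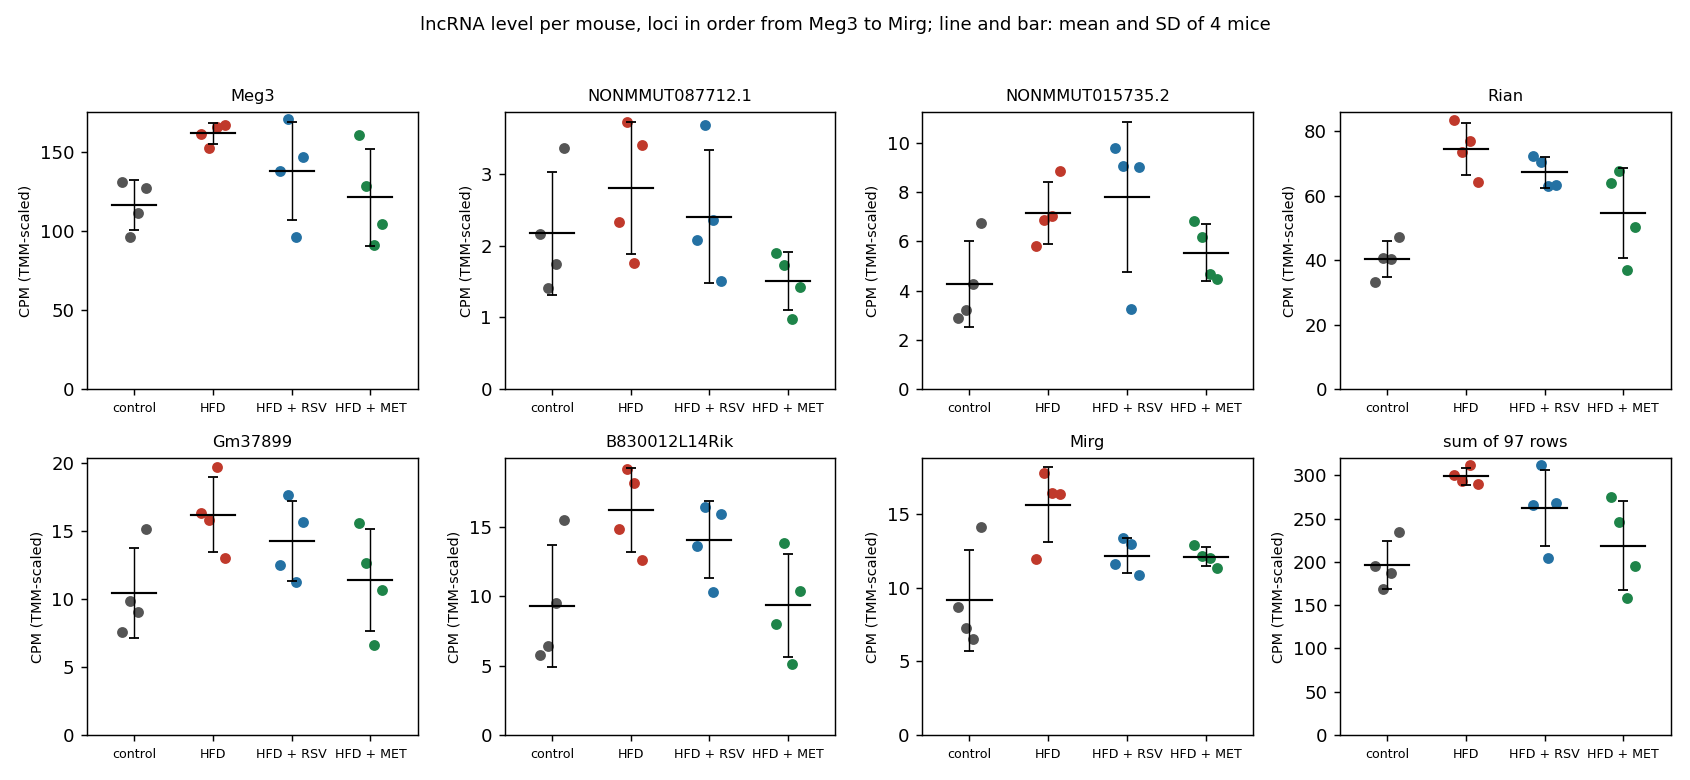
Level of the 7 tested loci and of the sum of the 97 rows in each of the 16 mice (y axis, TMM-scaled CPM of the lncRNA table; x axis, group), with points for mice and a line and bar for the mean and SD of 4 mice. Rian in the 4 HFD mice sits between 64.1 and 83.4 CPM, above the 33.2 to 47.1 CPM of the control mice.

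The sum over all 97 rows was 195.8, 169, 187 and 235 CPM in the control mice and 301, 293, 312 and 290 CPM in the HFD mice. The ratio of the group means was 1.52, and the groups did not overlap on this scale. As CPM without TMM scaling, the control mice ranged from 188 to 255 and the HFD mice from 245 to 307, so that the groups overlapped. Without TMM scaling the median of all loci moved to -0.19 on the log2 scale, Rian to 0.70, Meg3 to 0.30 and Mirg to 0.60, and the 7 loci stayed positive. As summed FPKM the ratio of group means over the 97 rows was 1.13, with Meg3 at 8.74 ± 1.93 (SD, n = 4) in the control group and 8.57 ± 1.15 in the HFD group. The summed FPKM of Rian was 2.96 ± 0.614 in the control group and 4.20 ± 0.475 in the HFD group. The direction at Meg3 therefore differed between summed counts and summed FPKM, a scale on which each row is divided by its length before the sum.

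Summed markers of some other cell types also differed between these groups, with no listed marker past the adjusted threshold. In edgeR, 3 of 8 adipocyte, 5 of 8 Schwann cell and 3 of 8 endothelial markers were lower at an unadjusted P under 0.05. Of the fibre markers 3 were higher and 1 lower, while 1 satellite cell marker was higher and 1 macrophage marker lower. None was under it in the fibro-adipogenic progenitor, erythroid and smooth muscle lists. The share of all mRNA genes under that threshold is not given here. The 8 adipocyte markers, all of which were detected, summed to 2188.8, 1870.1, 5628 and 2771 CPM of the mRNA table in the control mice and to 910.1, 711, 1163 and 1980.0 CPM in the HFD mice. The 8 Schwann cell markers, also all detected, summed to between 67.5 and 226 CPM in the control group and between 48.2 and 69.0 CPM in the HFD group. The 10 fibre markers ranged from 60570.2 to 101297 CPM and from 96468 to 109702 CPM, and the 8 endothelial markers from 455 to 548 CPM and from 416 to 464 CPM. In whole muscle, fewer cells of a type and less RNA per cell cannot be told apart. Without the 2 mice of the highest adipocyte sums, C1-5 and the metformin-treated MH8-2, the Rian difference was 0.88 (edgeR, adjusted P = 0.0165). Of these 2 mice only C1-5 belongs to this comparison, and the other control mice still had 1870.1 to 2771 CPM. The removal was chosen after the data were seen and leaves the groups unlike in adipocyte markers, so it cannot decide their part. The part of adipocytes and of the other cell types in the result was not tested.

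The second comparison asks whether resveratrol moved these transcripts in mice on the high-fat diet. It shares the 4 HFD mice with the first comparison and with the metformin comparison, so the directions are not independent. Of the 7 loci, 6 had a negative log2 fold change, with a median of -0.20 beside 0.00 over all loci. None had an unadjusted P under 0.05 in edgeR, against 6.44% of all loci, and none had one in DESeq2. None passed the adjusted threshold in either tool, against 0.0139% of all loci in edgeR.

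Rian had 72.4, 70.4, 63.1 and 63.2 CPM in the 4 HFD + RSV mice, of which the first and the second lay within the HFD range and the others just below it. The log2 fold change was -0.15 with an SE of 0.17 (edgeR, n = 4 and 4, adjusted P = 0.982). Meg3 had 138, 171, 96.4 and 147 CPM, with mouse RH3-3 lowest and mouse RH1-4 above all HFD mice. Its log2 fold change was -0.23 with an SE of 0.19 (edgeR, n = 4 and 4, adjusted P = 0.929). As summed FPKM the direction was the opposite, with 9.50 ± 3.09 (SD, n = 4) in the HFD + RSV group and 8.57 ± 1.15 in the HFD group. Mirg had 11.6, 13.3, 12.98 and 10.8 CPM, below 3 of the 4 HFD mice. Its log2 fold change was -0.36 with an SE of 0.21 (edgeR, n = 4 and 4, adjusted P = 0.863).

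Markers of other cell types moved here too, with none past the adjusted threshold. In edgeR 6 of 8 Schwann cell and 4 of 6 erythroid markers had an unadjusted P under 0.05 and were higher with resveratrol. The share of all mRNA genes under that threshold is not given here, so these counts have no background beside them. The Schwann cell markers summed to 91.7, 429, 46.5 and 149 CPM in the HFD + RSV mice, against 48.2 to 69.0 CPM in the HFD group. Mouse RH1-4 was thus far the highest, and mouse RH3-3 lay below every HFD mouse. The erythroid markers summed to 507 to 1344 CPM against 362 to 477 CPM. The part of these cell types in the result was not tested.

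Against the control group, Rian in the HFD + RSV group had a log2 fold change of 0.74 and an SE of 0.17 (edgeR, n = 4 and 4, adjusted P = 0.111). The lowest HFD + RSV mouse, at 63.1 CPM, was above the highest control mouse, at 47.1 CPM. Rian was the 1 locus of 7 that did not overlap in this comparison, against 4.26% of all loci. At an unadjusted P under 0.05 there were 2 of 7 loci in edgeR, Rian and NONMMUT015735.2, against 11.8% of all loci. The log2 fold changes against control were 0.24 for Meg3 and 0.43 for Mirg (edgeR, adjusted P = 0.646 and 0.447).

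The third comparison asks the same of metformin. It shares the HFD mice with the comparisons above. All 7 loci had a lower mean in the HFD + metformin group than in the HFD group, with a median log2 fold change of -0.45, while the median of all loci was 0.02. As summed FPKM, 6 of the loci were again lower with metformin, but Meg3 was higher, at 9.63 ± 1.77 (SD, n = 4) against 8.57 ± 1.15 in the HFD group. At an unadjusted P under 0.05 there were 4 of 7 loci in edgeR and 3 of 7 in DESeq2, against 7.19% of all loci in edgeR. Without TMM scaling the edgeR count was 1 of 7, with the median of all loci at 0.18 on the log2 scale. The share of all loci without TMM scaling is not given here. No locus of the 7 passed the adjusted threshold in either tool, and 0% of all loci did in edgeR.

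Rian had 63.9, 67.6, 37.0 and 50.3 CPM in mice MH4-3, MH6-5, MH8-2 and MH8-4. Mouse MH6-5 lay within the HFD range of 64.1 to 83.4 CPM, mouse MH4-3 just below it and the MH8 mice well below it. The log2 fold change was -0.45 with an SE of 0.17 (edgeR, n = 4 and 4, adjusted P = 0.618). Meg3 had 161, 129, 91.3 and 104 CPM in the same mice, with mouse MH4-3 inside the HFD range. Its log2 fold change was -0.41 with an SE of 0.19 (edgeR, n = 4 and 4, adjusted P = 0.672). Mirg had 12.9, 12.1, 12.0 and 11.3 CPM, a log2 fold change of -0.37 with an SE of 0.21 (edgeR, n = 4 and 4, adjusted P = 0.721).

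B830012L14Rik had 7.98, 13.9, 5.15 and 10.4 CPM, with a log2 fold change of -0.79 (edgeR, adjusted P = 0.639). NONMMUT087712.1 had 4 to 7 counts per mouse, with a log2 fold change of -0.90 (edgeR, adjusted P = 0.662). The adipocyte markers summed to 6034 CPM in MH8-2 and to 2731, 792 and 1005 CPM in the other metformin-treated mice. All 6 erythroid markers had an unadjusted P under 0.05 in this comparison (edgeR, none adjusted), with a median log2 fold change of 1.14 and summed levels of 500.1 to 1394 CPM against 362 to 477 CPM in the HFD group. So had 4 of the 8 endothelial markers, which summed to 428 to 616 CPM against 416 to 464 CPM. For these counts too, the share of all mRNA genes under that threshold is not given here. MH8-2 was also the mouse with the lowest fibre marker sum, 58608.9 CPM, and the lowest Rian level of its group. The part of these cell types in the difference was not tested. Without MH8-2 the Rian log2 fold change was -0.30 and the Meg3 change -0.31.

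Directly compared, the HFD + RSV and HFD + metformin groups differed at none of the 7 loci at an unadjusted P under 0.05 in edgeR, against 5.51% of all loci. The difference at Rian, as HFD + RSV over HFD + metformin, was 0.30 with an SE of 0.17 on the log2 scale (edgeR, n = 4 and 4, adjusted P = 0.919). At Mirg it was 0.01 with an SE of 0.21 (edgeR, adjusted P = 1.00). The group means of Rian ran from 40.3 CPM in the control group through 54.7 CPM with metformin and 67.3 CPM with resveratrol to 74.6 CPM in the HFD group. Of these neighbours, only the pair at the low end, control and metformin, had an unadjusted P under 0.05 (edgeR, adjusted P = 0.376), and Rian was the 1 locus of 7 with one in that comparison, against 10.5% of all loci. Over the 4 groups together, the edgeR test for any difference gave an adjusted P of 0.0739 for Rian and of 0.260 for Mirg.

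**Figure D2:**
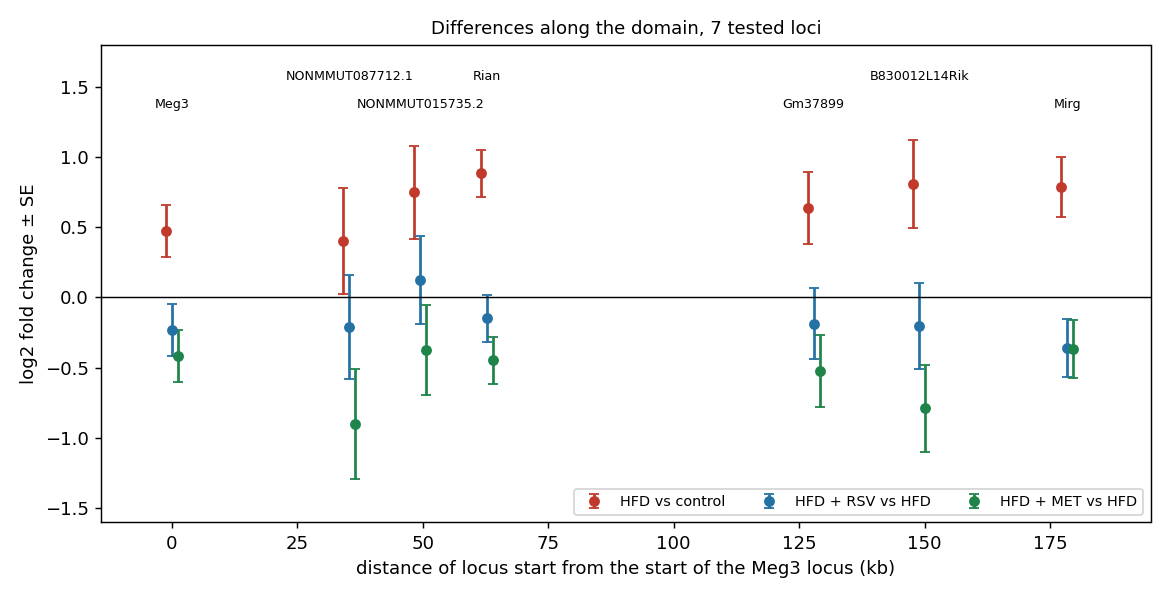
Log2 fold change ± SE (y axis) of the 7 tested loci against the distance of each locus start from the start of the Meg3 locus (x axis, kb), in 3 comparisons that share the 4 HFD mice. The HFD against control values all lie above 0, from 0.40 to 0.88, and the metformin values all lie below 0.

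The single rows behaved less evenly than the loci. In the comparison of HFD with control, 22 of the 28 tested rows had a positive log2 fold change, with a median of 0.54 beside a median of 0.00 over all 17599 rows tested. Only 1 row was called at an unadjusted P under 0.05 with a change of over 1 on the log2 scale, against 5.94% of all rows. The resveratrol comparison called 1 row, against 1.93% of all rows, and the metformin comparison called 3 rows, against 2.38%. No member row passed an adjusted P of 0.05 in edgeR or DESeq2 in these comparisons. The counts at an unadjusted P under 0.05 were 5, 1 and 4 rows in edgeR, against 17.6%, 6.29% and 6.95% of all rows. In DESeq2 they were 5, 0 and 3 rows, for which the share of all rows is not given here. The paper lists the Rian-locus row NONMMUT141647.1 among its lncRNAs that rose with the high-fat diet and fell with resveratrol. Its counts were 0, 5, 3 and 1 in the control mice and 18, 14, 38 and 3 in the HFD mice. In the HFD + RSV mice it had 0, 5, 0 and 0 counts. This row did not pass the filter on low counts and was therefore not tested here.

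The row called in the HFD comparison was NONMMUT015773.2, a Rian-locus transcript at chr12:109645847-109661711. It had 5, 0, 6 and 5 counts in the control mice and 47, 33, 3 and 21 counts in the HFD mice. HFD mouse H7-4 lay among the control mice, and the log2 fold change was 2.71 with an SE of 1.21 (edgeR, n = 4 and 4, adjusted P = 0.262). The call was lost when any 1 of 10 mice was left out, namely each of the 4 control mice, HFD mice H7-2, H7-3 and H7-5, metformin-treated mice MH8-2 and MH8-4 and resveratrol-treated mouse RH1-4, with log2 fold changes from 2.20 to 2.94.

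The rows called against HFD lay in the Meg3 locus. NONMMUT015695.2 (chr12:109540996-109568600) had 30, 0, 12 and 34 counts in the HFD mice, 26, 0, 0 and 0 in the control mice, and 0 in every mouse treated with resveratrol or metformin. It was called in both treatment comparisons (edgeR, adjusted P = 0.742 for resveratrol and 0.683 for metformin). No fold is given, because every treated mouse was at 0. Both calls were lost with no filter and in DESeq2, and when 1 mouse was left out in 6 of 16 cases for resveratrol (HFD mouse H7-2 or H7-5 or any HFD + RSV mouse) and 5 of 16 for metformin (H7-2, H7-5, MH6-5, MH8-2 or MH8-4). The metformin call was also lost without the 2 mice of the highest adipocyte sums. NONMMUT015709.2 (chr12:109548329-109568600) had 68, 0, 86 and 87 counts in the HFD mice and 0 in all metformin-treated mice, but 0, 0, 90 and 121 counts in the HFD + RSV mice. In the control mice it had 46, 0, 0 and 0 counts. The Ensembl Meg3 transcript ENSMUST00000146701 had 92, 32, 29 and 31 counts in the control mice and 106, 52, 135 and 99 in the HFD mice. In the metformin-treated mice it had 32, 46, 28 and 33 counts, a log2 fold change against HFD of -1.64 (edgeR, adjusted P = 0.704). This call was lost with no filter, without TMM scaling, and when 1 mouse was left out in 7 of 16 cases (H7-2, H7-4, H7-5 or any metformin-treated mouse), while the value stayed negative in all 16. It was also lost without the 2 mice of the highest adipocyte sums.

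These rows overlap one another, and how the Meg3 counts were divided among them differed from mouse to mouse, a pattern chosen after its values were seen. NONMMUT015709.2 had 46 to 121 counts in 6 mice from 3 groups, and in those 6 mice the overlapping row NONMMUT015708.2 had 0 to 42 counts. In the other 10 mice NONMMUT015709.2 was at 0 and NONMMUT015708.2 had 74 to 135 counts. In the Meg3 locus 8 of the 11 tested rows were at 0 in at least 1 mouse. Within groups the coefficient of variation of the 11 rows had a median of 51.3%, while that of the Meg3 locus sum lay between 4.11% and 25.3%. For Rian the median over 11 tested rows was 76.0% and the sum lay between 7.19% and 25.4%. The row with the highest mean count, the short Meg3 transcript ENSMUST00000129245 at chr12:109541001-109545319, was above 0 in all mice. It had 52, 104, 84 and 79 counts in the control mice and 104, 114, 89 and 82 in the HFD mice, a log2 fold change of 0.41 with an SE of 0.16 (edgeR, n = 4 and 4, adjusted P = 0.200).

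**Figure D3:**
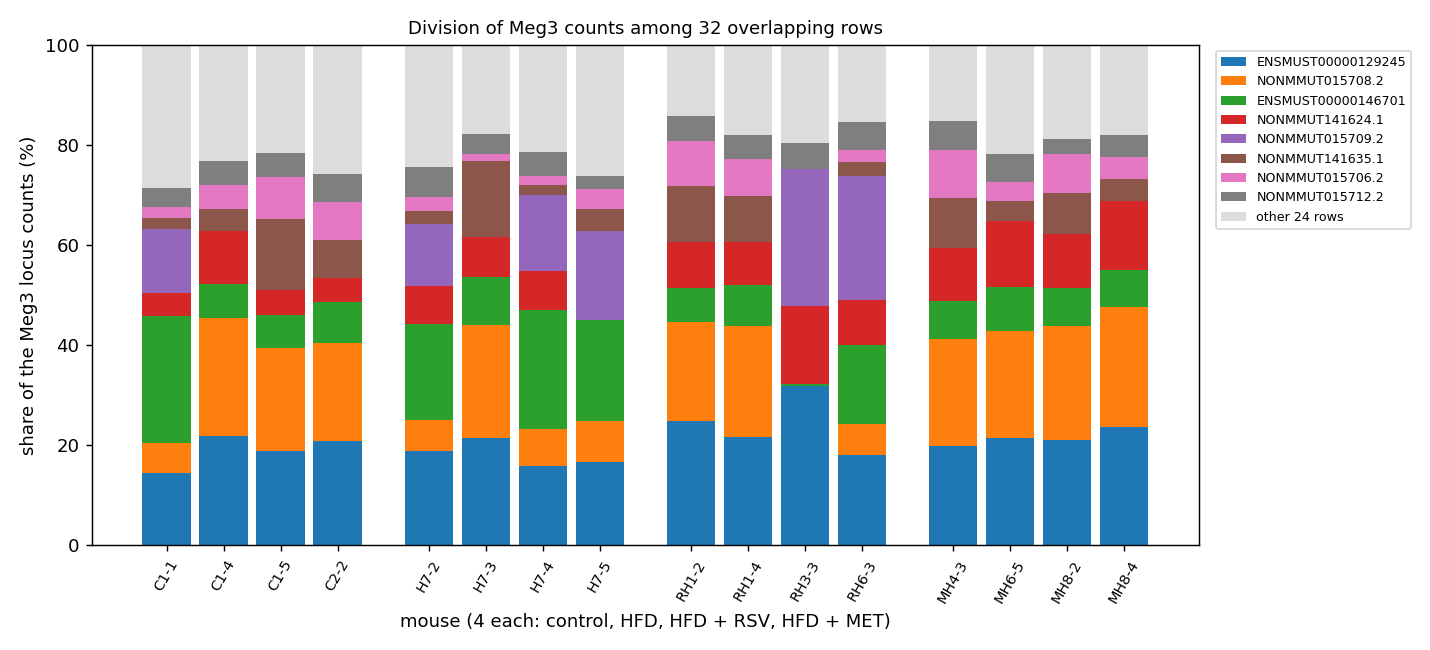
Share of the Meg3 locus counts (y axis, %) given to each of the 8 rows of highest mean count and to the other 24 rows together, for each of the 16 mice (x axis, 4 per group). The share of NONMMUT015709.2 is 0 in 10 mice and large in the other 6, where that of NONMMUT015708.2 is small.

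In the Rian locus the single-exon transcript ENSMUST00000182406 had 8, 22, 28 and 29 counts in the control mice and 48, 54, 40 and 19 in the HFD mice. Its log2 fold change was 0.98 with an SE of 0.37 (edgeR, n = 4 and 4, adjusted P = 0.178). The transcripts ENSMUST00000180876, ENSMUST00000182981 and ENSMUST00000194138 had log2 fold changes of 0.66, 0.63 and 0.45 and did not pass (edgeR, adjusted P = 0.641, 0.662 and 0.597). In the Meg3 locus NONMMUT141624.1, NONMMUT141635.1 and NONMMUT015712.2 had log2 fold changes of 0.40, 0.20 and 0.38, and NONMMUT015708.2 and NONMMUT015706.2 of -0.17 and -0.77, and none of these 5 rows had an unadjusted P under 0.05 (edgeR).

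Across the 16 mice the named loci varied together in part. The log2 levels of Meg3 and Rian had a Pearson r of 0.68 (permutation test, P = 0.00468, adjusted over 6 relations 0.0156) and a Spearman rho of 0.73 (permutation P = 0.00186, adjusted 0.0112). For Rian and Mirg r was 0.66 (permutation P = 0.00519, adjusted 0.0156) and rho 0.56 (permutation P = 0.0267, adjusted 0.0801), and for Meg3 and Mirg r was 0.53 (permutation P = 0.0340, adjusted 0.0681) and rho 0.51 (permutation P = 0.0480, adjusted 0.0961). Without the 2 mice farthest from the median of the x-axis locus, r was 0.53, 0.71 and 0.49. After subtraction of the group means r was 0.51 for Meg3 and Rian, 0.15 for Rian and Mirg and 0.24 for Meg3 and Mirg, with permutation P within groups of 0.127, 0.579 and 0.310, all adjusted to 0.191 or more. The rho values after subtraction were 0.45, 0.14 and 0.34 (permutation P = 0.152, 0.590 and 0.213). The relation did not pass the threshold within the groups, and the levels of one mouse share its library scaling.

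**Figure D4:**
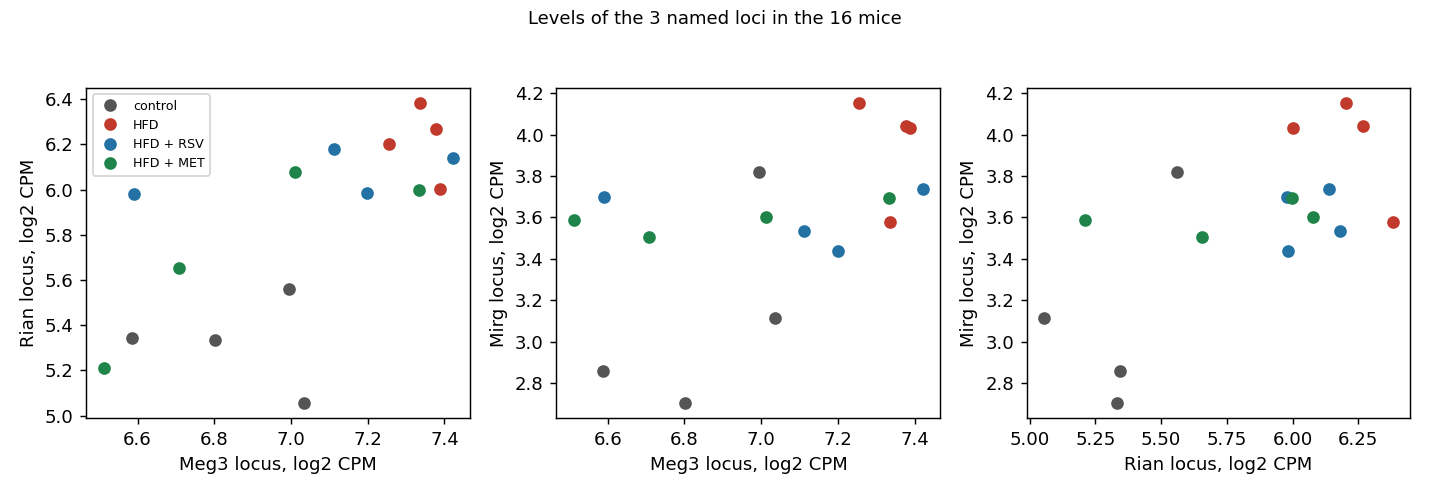
Log2 CPM of the Meg3, Rian and Mirg loci against one another, 1 point per mouse and 1 colour per group. For Meg3 and Rian, the HFD mice lie at the upper right and the control mice towards the lower left, and r over the 16 mice is 0.68.

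The paternally expressed protein genes of the domain had few counts in this muscle. Rtl1, a retrotransposon-derived gene, had 0 to 4 counts per mouse, and Dio3, the deiodinase that inactivates thyroid hormone, had 0 to 8 counts, and neither was tested. Dlk1, a Notch-family inhibitor of adipocyte differentiation, had 14, 19, 12 and 7 counts in the control mice and 18, 14, 24 and 21 in the HFD mice. The groups overlapped, and the log2 fold change of Dlk1 was 0.60 with an SE of 0.40 (edgeR, n = 4 and 4, adjusted P = 0.374). Of the 8 protein genes that flank the domain, 7 were tested and none passed the adjusted threshold in the HFD comparison, against 2.43% of all mRNA genes. At an unadjusted P under 0.05 there was 1 gene, a count for which the share of all genes is not given here. That gene was Yy1, a zinc-finger factor, with a log2 fold change of 0.19 (edgeR, adjusted P = 0.120).

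A list of 16 factors known to act on imprinted domains or to bind this one was followed in the mRNA table. In the HFD comparison 2 of the 16 rose past the adjusted threshold, against the 2.43% of all genes, and none fell. The list was chosen with earlier results of these data known, so this count describes the list and is no test of it. Mef2c, a myogenic transcription factor of the MEF2 family, had 136, 180, 82.0 and 181 CPM in the control mice and 421, 526, 541 and 340 CPM in the HFD mice. Every HFD mouse was above every control mouse, and the log2 fold change was 1.66 with an SE of 0.27 (edgeR, n = 4 and 4, adjusted P = 0.0149). Jarid2, a Polycomb cofactor, had 35.4, 36.6, 44.1 and 39.8 CPM in the control mice and 60.1, 52.7, 51.6 and 54.4 CPM in the HFD mice. Its log2 fold change was 0.49 with an SE of 0.092 (edgeR, n = 4 and 4, adjusted P = 0.0236), and the adjusted P lay between 0.0601 and 0.0817 without control mouse C1-4, HFD mouse H7-2 or HFD mouse H7-3 and at 0.140 without TMM scaling.

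The other members of the list did not pass. Mef2a and Mef2d, the remaining MEF2 genes of the list, had log2 fold changes of 0.25 and 0.16 (edgeR, adjusted P = 0.257 and 0.461). Ezh2 and Suz12, core Polycomb subunits, had log2 fold changes of -0.40 and -0.35 (edgeR, adjusted P = 0.119 and 0.151), and Zfp57, which keeps imprints in the embryo, had -0.37 (edgeR, adjusted P = 0.668). Creb1, which binds cAMP response elements, had 0.29 (edgeR, adjusted P = 0.547).

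In the resveratrol comparison, Mef2c had 127, 205, 233 and 250 CPM in the HFD + RSV mice, all below the HFD mice, with a log2 fold change of -1.17 and an SE of 0.27. No gene of the mRNA table passed the adjusted threshold there in edgeR (0% of all genes; Mef2c adjusted P = 0.999), whereas in DESeq2 Mef2c passed it (adjusted P = 0.0296). Jarid2 had a log2 fold change of -0.26 (edgeR, adjusted P = 0.999). In the metformin comparison none of the 16 passed, against 0.013% of all genes, and Mef2c had a log2 fold change of -0.64 (edgeR, adjusted P = 0.618).

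**Figure D5:**
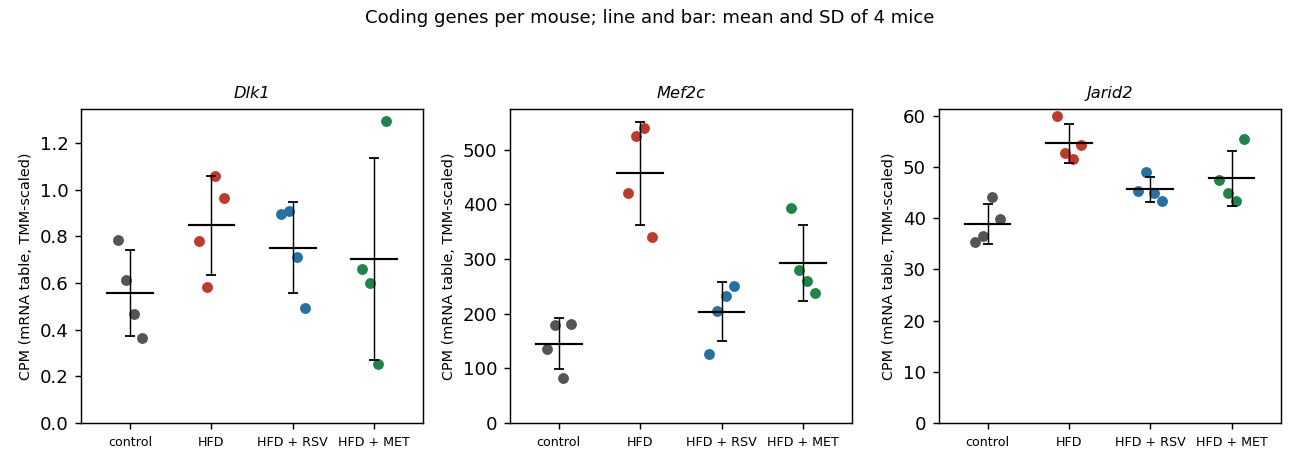
Level of Dlk1, Mef2c and Jarid2 in each of the 16 mice (y axis, TMM-scaled CPM of the mRNA table; x axis, group), with points for mice and a line and bar for the mean and SD of 4 mice. Mef2c in the HFD mice lies between 340 and 541 CPM and in the control mice between 82.0 and 181 CPM.

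Other imprinted genes were followed for comparison. Of 22 listed, 18 were tested in the mRNA table. In the HFD comparison their median log2 fold change was 0.06, beside -0.02 over all genes. None passed the adjusted threshold there in edgeR, against 2.43% of all genes, and DESeq2 passed 2. At an unadjusted P under 0.05 in edgeR there were 3, a count for which the share of all genes is not given here. Of the 18, 1 combined such a P with a change of over 1 on the log2 scale, against 4.94% of all genes. The 3 genes were Mest, a paternally expressed gene of mesoderm, with 2.04 (edgeR, adjusted P = 0.103), Grb10, an inhibitor of insulin receptor signalling, with 0.43 (edgeR, adjusted P = 0.104), and Snrpn, a splicing protein gene of the Prader-Willi region, with 0.55 (edgeR, adjusted P = 0.0783). In the lncRNA table the locus of Peg13, another imprinted lncRNA, had a log2 fold change of 0.37 (edgeR, adjusted P = 0.0811), and that of H19, the growth-restraining lncRNA next to Igf2, had -0.56 with an SE of 0.51 (edgeR, adjusted P = 0.603). None of the 18 passed the adjusted threshold in the resveratrol or metformin comparison in edgeR, against 0% and 0.013% of all genes. There 1 and 2 genes had an unadjusted P under 0.05, again without the share of all genes beside them.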

How the data were processed

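RNA from skeletal muscle of 16 mice had been sequenced. The authors deposited 2 tables, one of lncRNA and one of mRNA transcripts, each with an expected count and an FPKM value per transcript and mouse. Per the labels, reads were trimmed with fastp and aligned to GRCm38 with HISAT2. The study's methods name StringTie for the abundance step, which divides fragments among overlapping transcripts. The deposited estimated counts are whole numbers and were used without rounding, and the deposited FPKM values were used only for sums and levels per length. Of the mRNA records, 4 that were broken over 2 lines were rejoined. The window was applied to the lncRNA table, and rows were merged into loci by overlap of their spans without strand, because the table gives none. edgeR 4.0.16 in R 4.3.3 was run on all 16 mice at once (TMM scaling; filterByExpr with a minimum count of 10; quasi-likelihood F test; call at an unadjusted P under 0.05 and a log2 fold change over 1 in size; Benjamini-Hochberg adjustment over all 17599 rows, 14379 loci or 15364 mRNA genes). The fitting step was also run on simulated data, made after the main fit from its counts and dispersions. DESeq2 1.42.0, RLE scaling, scaling over both tables, other filters, fewer groups and leaving out each mouse served as alternatives. Correlations used 100000 permutations. Genes and rows were named by a rule: rows called in the 3 main comparisons, the rows of highest mean count, tested Ensembl rows of Meg3, Rian and Mirg, the merged loci, and listed genes. The members and lists were chosen with earlier results of these data known. Depth was 20281801 to 34021101 counts per mouse over both tables, and 542 to 1099 counts per mouse in the members limit the precision. Replicates are separate mice per the labels.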

Additional observations from a re-analysis of the deposited data

Results flagged for a closer look

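Of 44 groups of 4 mice examined (7 loci, the sum of the 97 rows, Dlk1, Mef2c and Jarid2 in 4 groups), 1 had a mouse far from the others by Dixon's gap test, and chance gives about 1 in 20. In the HFD + RSV group mouse RH3-3 had 3.24 CPM of NONMMUT015735.2, the transcript over miR-433 and Rtl1, while the nearest of the others had 9.03 CPM. The same mouse had the lowest Meg3 level of its group, 96.4 CPM, and no counts of the Meg3 row NONMMUT015708.2.

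Signal for Rian also lay outside the lncRNA table. The 7 Rian transcripts of the mRNA table, which the main comparison does not use, summed to 231 counts over the 4 control mice, 174 over the HFD mice, 174 over the HFD + RSV mice and 202 over the HFD + metformin mice. These counts did not follow the order of the Rian locus in the lncRNA table, and the division of fragments between the tables was not tested.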

How the results depend on the processing

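The log2 fold changes of the merged Meg3, Rian and Mirg loci kept their sign in all 3 comparisons under every alternative fit of the counts, whereas summed FPKM turned the direction of Meg3 in each comparison. Without TMM scaling 2 and 1 of the 7 loci had an unadjusted P under 0.05 against control and for metformin, where TMM gave 6 and 4. The shares of all loci without TMM scaling are not given here. Rian against control ranged from 0.61 to 0.93 over the 10 alternatives, with adjusted P from 0.000612 to 0.0465, and from 0.80 to 0.97 when each mouse was left out, with adjusted P from 0.00385 to 0.0634. Mirg against control passed the adjusted threshold with the stricter filter (0.78, adjusted P = 0.0488) and in DESeq2 (0.81, adjusted P = 0.0323), out of a range of adjusted P from 0.0323 to 0.147, and moved between 0.65 and 1.07 when each mouse was left out. Meg3 against control ranged from 0.30 to 0.52. The number of member rows called depended most on the processing. Against 1, 1 and 3 rows in the HFD, resveratrol and metformin comparisons, no filter called 10, 15 and 7 rows and an adjusted P called 0 in each. The stricter filter called 0 rows in the first and the second, the 2 groups alone called 0, 0 and 1, DESeq2 called 2 and 0 in the first and the second, the 12 mice without metformin called 2 in the first, and library totals alone called 0 in the first. Leaving out each mouse gave 0 to 5, 0 to 2 and 1 to 5 rows. Without the 2 mice of the highest adipocyte sums, an alternative chosen after seeing the data like the Rian rows of the mRNA table and the library totals, 4 and 2 rows were called in the first and the second. With no filter all 97 member rows were open to a call. The share of all rows called under these alternatives is not given here, so these counts have no background beside them. As FPKM sums the ratio over the 97 rows was 1.13 for HFD against control, 1.06 for resveratrol and 1.00 for metformin, where counts gave 1.52, 0.876 and 0.731. With library totals alone the correlations of Rian with Meg3 (0.56) and with Mirg (0.58) no longer passed (permutation test, adjusted P = 0.0741 for both), 1 regulator gene passed in place of 2, and the share of called loci that were higher in HFD fell from 44.5% to 23.5% over the table. In DESeq2 1 regulator gene passed in the resveratrol comparison and 2 other imprinted genes in the HFD comparison, where the 12 mice without metformin passed 1. Leaving out each mouse gave 1 to 3 regulator genes and 0 to 1 other imprinted genes in that comparison. Among the single rows named, leaving out 1 mouse turned the sign of NONMMUT141635.1 (-0.73 to 0.77 against control, -0.55 to 0.81 for resveratrol, -0.73 to 0.70 for metformin), NONMMUT015708.2 (-0.71 to 0.023 against control and -0.54 to 0.63 for resveratrol), ENSMUST00000182981 (-0.41 to 0.89, -0.42 to 0.88 and -0.47 to 1.25), NONMMUT015709.2 (-1.08 to 0.17 for resveratrol), NONMMUT015712.2 (-0.15 to 0.18 for resveratrol) and ENSMUST00000180876 (-0.19 to 0.65 for resveratrol), none of which was called with all mice in the comparison given, and of the NONMMUT015735.2 locus for resveratrol (-0.0087 to 0.38). The cause was not tested. No paired analysis was possible because nothing in the labels ties a mouse of one group to a mouse of another. At 542 to 1099 member counts per mouse, 69 of the 97 rows and 6 of the 13 loci were too shallow to test.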
